A study of Rattus norvegicus with 12 samples.

Results

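The transcripts described here encode 8 enzymes that make serine, proline and asparagine or pass serine carbon into the mitochondrial folate cycle: Phgdh, Psat1, Psph, Shmt2, Mthfd2, Aldh18a1, Pycr1 and Asns. They were found by gene name on a 1-colour Agilent array of 60-base probes, where they were read by 13 of 45598 probes on 34 of 58717 non-control spots, and they make up 8 of the 36181 genes and other named features of the array. The samples were cultures of N27, an immortalised rat line labelled as dopaminergic. The 7 knockout cultures (KO 1 to KO 7) are described as CRISPR knockouts of the voltage dependent anion channel Vdac1. The 5 wild-type cultures (WT 3, WT 5, WT 6, WT 7 and WT 8) carried no stated edit. No drug or time course was given to either group, and the sources used here do not say whether the knockout cultures were 1 clone. Nor do they say whether the cultures were grown independently, so p-values measure the spread between these samples, which may be technical.

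Phgdh, Psat1 and Psph act one after another to turn the glycolytic intermediate 3-phosphoglycerate into serine. In mitochondria, Shmt2 splits serine into glycine and a one-carbon unit, and Mthfd2 oxidises that unit on folate. Aldh18a1 and Pycr1 carry out the first and the last step of proline synthesis from glutamate inside mitochondria, and Asns makes asparagine from aspartate with glutamine as the nitrogen donor. In mammalian cells the transcription factor Atf4, which is translated when amino acids are scarce or mitochondria are impaired, is known to drive many of these genes.

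Because each level below is the signal of 1 probe, the sequences that were measured are given first. For every enzyme the brightest probe stands for the gene, and the first 30 of its 60 bases are printed 5′ to 3′ from the deposited array files.
Phgdh, probe at base 1743 of the transcript: tcttctgaggaaacccgctcactgtgacct
Psat1, probe at base 1931: tttgtagtttaaccagggcaatctgtacat
Psph, probe at base 1007: tgtagttccaatattaatatgactactaat
Shmt2, probe at base 1711: cccctccagaatctgtagctgagatttctg
Mthfd2, probe at base 1899: atgtctttcacggaccctggctttcctgaa
Aldh18a1, probe at base 3082: aggaagggtaactccttaaaacctttaaca
Pycr1, probe at base 1453: cctgcatgttcctcgactcaacaaatgctg
Asns, probe at base 1686: agaaatttcccttcaatactccccaaacta

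The file coordinates, for which the headers name build rn4 and which were not checked against a genome here, place these probes as follows. The Phgdh probe lay on the minus strand at chr2:193147943-193148002. The Psat1 and Aldh18a1 probes lay at chr1:219268481-219268540 and chr1:245686291-245686350. The Psph probe lay at chr12:27969823-27969882 and the Shmt2 probe at chr7:67494744-67494803. The Mthfd2 and Asns probes lay on chromosome 4, at chr4:117517713-117517772 and chr4:32759136-32759195, and the Pycr1 probe at chr10:110030931-110030990. Whether a probe lies in coding sequence or in an untranslated region was not analysed here.

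Levels are log2 processed signal minus the 75th percentile of the same array, so 0 is the array's 75th percentile, and they compare arrays at 1 probe, not one probe with another. The 75th percentile ranged 5.76-fold between arrays (120.1 to 691.8), 42.3% to 53.8% of spots were well above background and none was saturated. Precision is limited by the number of arrays. The targeted gene, Vdac1, did not overlap between the groups at its brightest probe, between 1.20 and 2.68 in the knockout and between 3.07 and 3.61 in the wild type (log2 fold change -1.23, SE 0.28, limma adjusted p = 0.0560). Its dimmer probes at bases 880 and 630 did not overlap either. They differed by -1.22 and -1.15 (limma with each probe as its own feature, adjusted p = 0.0422 and 0.0897). At each of these probes Vdac1 stayed well above background on all 7 knockout arrays, and its protein was not measured here. Of the dopaminergic markers looked up, Th and Aldh1a1 were well above background on all 12 arrays, whereas Slc6a3, Ddc, En1, Foxa2 and Lmx1a were so on none. Slc18a2 was so on 6 knockout and 3 wild-type arrays, Nr4a2 on 1 and 4, Lmx1b on 3 and 1, and Pitx3 on 1 and 0. Of 9 neuronal and progenitor markers, 3 were well above background on all 12 arrays, Eno2, Nes and Vim. Tubb3, Rbfox3 and Sox2 were so on some arrays, and Map2, Nefl and Nefm on none. All 12 arrays were reached by 2 of 5 microglial and blood, 2 of 6 fibroblast and mesenchymal and 0 of 10 glial markers. The filter on dim probes, at least 5 of 12 arrays, was passed by 5, 2, 3 and 0 markers of these lists. Earlier results had shown that the arrays numbered 1 to 4 in the labels (KO 1 to KO 4 and WT 3) stood apart from those numbered 5 to 8. The numbers are not described as batches in the labels, and they are used here as a split, given beside the results that it moved most.

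All 8 enzymes passed the filter on dim probes, and 3 of them fell in the knockout while none rose. Pycr1 was 2.22-fold lower, Psph 1.83-fold lower and Aldh18a1 1.54-fold lower. In the same limma fit with Benjamini-Hochberg adjustment over 14742 features, 0.393% of features were called lower (58) and 0.699% higher (103). With quantile normalization the same test called 48 lower and 56 higher. All 8 enzymes had a log2 fold change below 0, where 44.7% of features did. Their median was -0.49, and the median over all tested features was 0.04. In 4 enzymes (Psph, Shmt2, Aldh18a1 and Pycr1) every knockout array lay below every wild-type array, which held for 0.889% of features. At an unadjusted limma p under 0.05, 6 of the 8 were lower, against 6.23% of features.

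**Figure D1:**
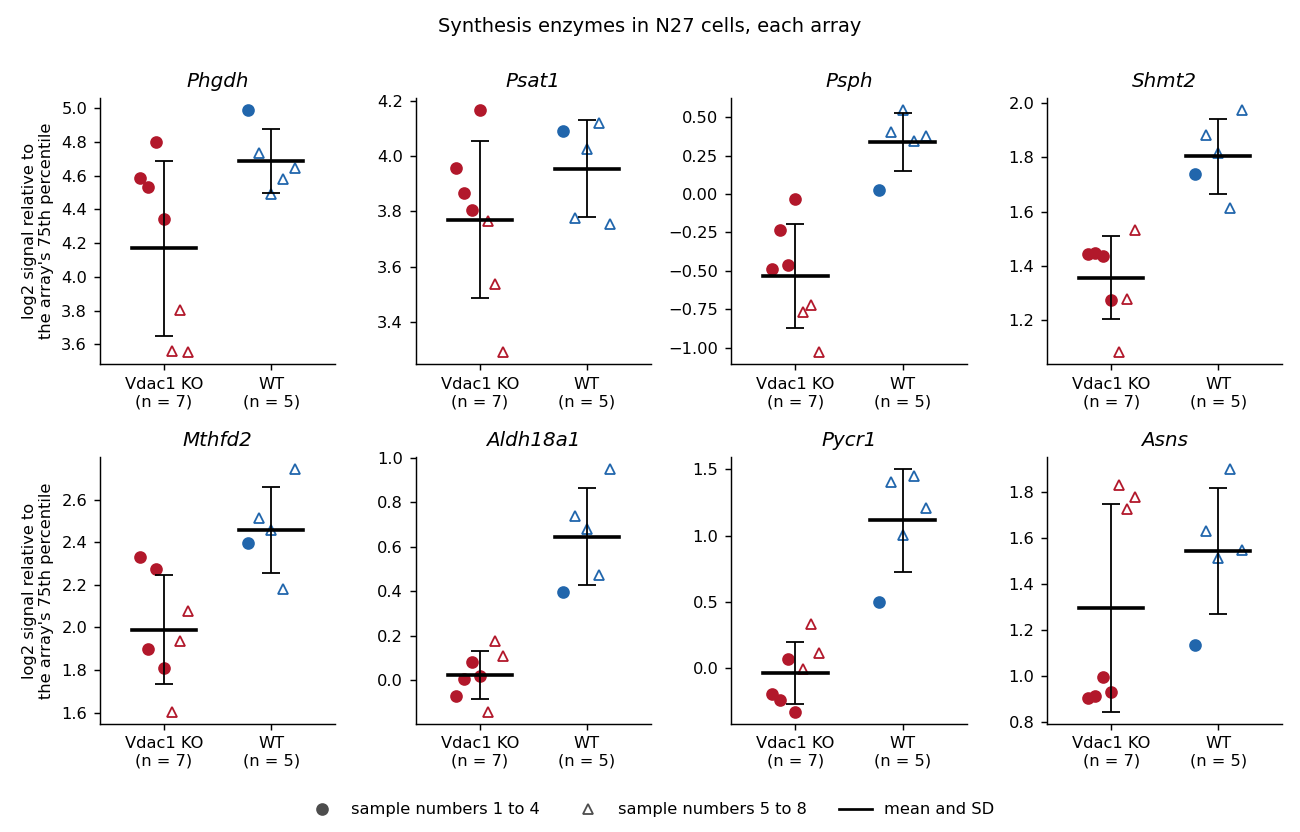
Log2 signal relative to the array's 75th percentile (vertical axes, each on its own scale) for the brightest probe of the 8 enzymes, with the 7 knockout arrays left and the 5 wild-type arrays right. Filled circles are sample numbers 1 to 4, open triangles numbers 5 to 8, and bars are mean and SD. The groups do not overlap for Psph, Shmt2, Aldh18a1 and Pycr1, and for Asns the 3 knockout arrays numbered 5 to 7 lie among the wild-type arrays.

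The serine enzymes differed among themselves. Psph, the phosphatase of the last step, had levels of -0.49, -0.24, -0.46, -0.031, -0.77, -0.72 and -1.03 in KO 1 to KO 7, against 0.029, 0.40, 0.55, 0.34 and 0.37 in WT 3, WT 5, WT 6, WT 7 and WT 8. The groups did not overlap, but KO 4 and WT 3 were separated by a narrow gap, and KO 7 was the lowest. The Psph mean was -0.53 ± 0.34 in the knockout and 0.34 ± 0.19 in the wild type (SD, n = 7 and 5), a log2 fold change of -0.87 (SE 0.17, limma adjusted p = 0.0408), and the exact permutation p, two-sided over every split of the 12 arrays into 7 and 5, was 0.00253. Psph differed by -1.26 among numbers 5 to 8 and by -0.33 among numbers 1 to 4, where WT 3 was the lowest wild-type array.

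Phgdh, the dehydrogenase that commits 3-phosphoglycerate to serine, had levels of 4.58, 4.54, 4.80, 4.34, 3.56, 3.81 and 3.55 in KO 1 to KO 7, against 4.99, 4.73, 4.49, 4.58 and 4.64 in WT 3, WT 5, WT 6, WT 7 and WT 8. The first 4 knockout arrays lay at or near the wild-type level and the last 3 lay below every other array. Over all arrays Phgdh differed by -0.52 (SE 0.23, limma adjusted p = 0.302; exact permutation p = 0.0694). Knockout arrays 5 to 7 averaged 3.64, against 4.61 in WT 5 to WT 8, and among these arrays alone limma gave -0.97 (adjusted p = 0.0134). Within those 7 arrays 3 of the 8 enzymes fell, Phgdh, Psph and Pycr1, beside 2.34% of features. Within numbers 1 to 4 all 8 were below 0, from -0.68 for Pycr1 to -0.14 for Psat1, and 0 passed, beside 0.0339% of features. With 1 wild-type array in that set, the missing calls do not show a difference between the sets.

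Psat1, the aminotransferase between them, had levels of 3.29, 3.80 and 4.17 (lowest, median and highest) in the knockout, against 4.09, 3.78, 4.03, 4.12 and 3.75 in the 5 wild-type arrays. The highest array of all was KO 4 and the lowest KO 7, so the knockout spanned the whole wild-type range. The difference was -0.18 (SE 0.16, limma adjusted p = 0.603; exact permutation p = 0.237) and was smaller than the knockout's own SD of 0.28. With the sample numbers as a block it was -0.31 (limma adjusted p = 0.208).

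The mitochondrial folate pair differed by similar amounts, and neither enzyme passed the threshold over all features. Shmt2 had levels of 1.44, 1.45, 1.43, 1.27, 1.08, 1.28 and 1.53 in KO 1 to KO 7, against 1.74, 1.88, 1.81, 1.61 and 1.98 in WT 3, WT 5, WT 6, WT 7 and WT 8. Every knockout array was below every wild-type array, with means of 1.36 ± 0.15 in the knockout and 1.80 ± 0.14 in the wild type (SD, n = 7 and 5). Its log2 fold change was -0.45 (SE 0.12, limma adjusted p = 0.0877), and the exact permutation p was 0.00126, the smallest this design allows.

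Mthfd2 had levels of 2.33, 1.90, 2.28, 1.81, 1.60, 1.94 and 2.08 in KO 1 to KO 7, against 2.40, 2.51, 2.46, 2.18 and 2.74 in WT 3, WT 5, WT 6, WT 7 and WT 8. KO 1 and KO 3 lay above WT 7, the lowest wild-type array, and the other 5 knockout arrays lay below all of them. The Mthfd2 difference was -0.47 (SE 0.15, limma adjusted p = 0.155; exact permutation p = 0.00884).

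Both proline enzymes fell. Pycr1, which reduces pyrroline-5-carboxylate to proline, had levels of -0.19, -0.24, 0.071, -0.33, -0.0060, 0.33 and 0.12 in KO 1 to KO 7, against 0.50, 1.41, 1.00, 1.45 and 1.21 in WT 3, WT 5, WT 6, WT 7 and WT 8. The groups did not overlap, and WT 3 was the wild-type array nearest to the knockout. The means were -0.035 ± 0.23 in the knockout and 1.11 ± 0.39 in the wild type (SD, n = 7 and 5), a log2 fold change of -1.15 (SE 0.18, limma adjusted p = 0.0197; exact permutation p = 0.00126).

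Aldh18a1, the synthase that makes the pyrroline-5-carboxylate precursor from glutamate, had levels of -0.071, 0.0051, 0.082, 0.018, -0.14, 0.17 and 0.11 in KO 1 to KO 7, against 0.39, 0.74, 0.68, 0.47 and 0.95 in WT 3, WT 5, WT 6, WT 7 and WT 8. The knockout arrays lay close together, with an SD of 0.11 around a mean of 0.025, below a wild-type mean of 0.65 ± 0.22 (SD, n = 5). The log2 fold change was -0.62 (SE 0.13, limma adjusted p = 0.0408; exact permutation p = 0.00126).

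These calls depended on single arrays. When each array was left out in turn, Pycr1 passed in 8 of 12 fits and lost the call without KO 2, WT 5, WT 6 or WT 8, while its log2 fold change stayed between -1.30 and -1.06. Psph kept the call in 2 of these fits (without KO 4 and without WT 3) and Aldh18a1 in 1 (without WT 3), at log2 fold changes of -0.96 to -0.79 and -0.68 to -0.55. With normexp background correction only Pycr1 passed (-0.97, limma adjusted p = 0.0234), beside 0.0611% of features called lower.

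Asns had a pattern of its own among the 8. Its levels were 0.91, 0.91, 0.99, 0.93, 1.83, 1.73 and 1.78 in KO 1 to KO 7, against 1.13, 1.63, 1.51, 1.90 and 1.55 in WT 3, WT 5, WT 6, WT 7 and WT 8. The 5 arrays numbered 1 to 4 were the lowest, whatever their genotype, and KO 5 to KO 7 lay within the wild-type range. The Asns difference over all arrays was -0.25 (SE 0.22, limma adjusted p = 0.623; exact permutation p = 0.316), with the sample numbers as a block it was 0.03, and among numbers 5 to 8 alone 0.13.

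**Figure D2:**
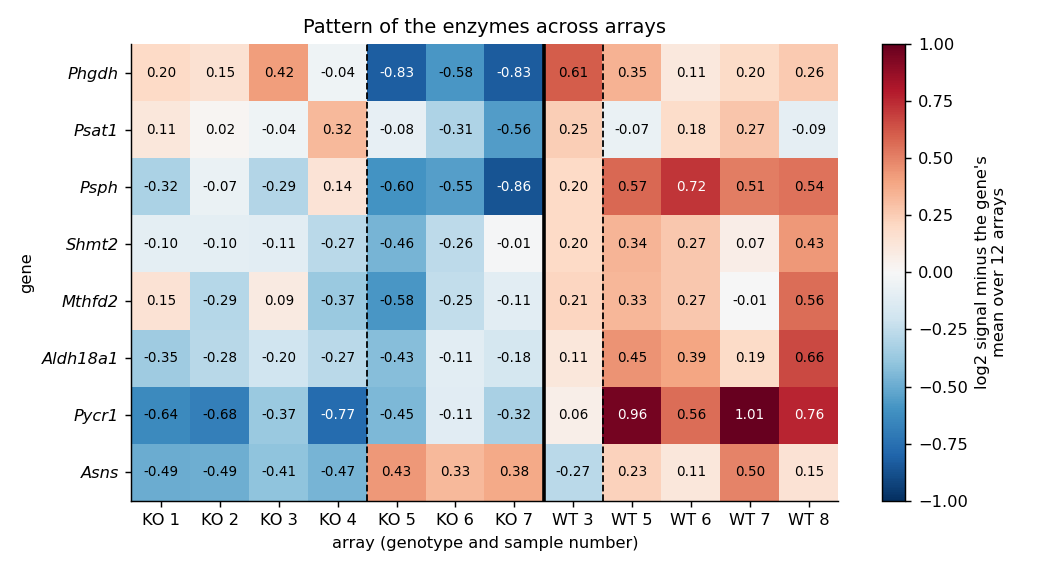
Log2 signal of each enzyme minus its mean over the 12 arrays (colour and printed number), with knockout arrays left of the solid line and wild-type arrays right of it, and dashed lines between sample numbers 1 to 4 and 5 to 8. Asns is below its mean in KO 1 to KO 4 and WT 3 and above it in KO 5 to KO 7, where Phgdh, Psat1 and Psph are below theirs.

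Across the 12 arrays the enzymes moved together in most of the 28 pairs. Pearson correlations, given as a description since all pairs share the arrays and their scaling, ran from -0.53 to 0.92 with a median of 0.62, and 24 were above 0. Shmt2 and Mthfd2 had the highest (0.92), followed by Shmt2 with Aldh18a1 (0.91) and Aldh18a1 with Pycr1 (0.90). Phgdh and Asns had the lowest.

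With each genotype's mean subtracted, which leaves the spread among cultures of the same genotype, the median over the 28 pairs was 0.016 and 16 were above 0. Shmt2 and Mthfd2 still correlated at 0.84 over the 12 arrays. Phgdh and Asns stood at -0.91, and Pycr1 and Asns at 0.73. The arrays fall into the sets numbered 1 to 4 and 5 to 8, so these values are in part differences between the sets: Phgdh averaged 4.57 in KO 1 to KO 4 and 3.64 in KO 5 to KO 7, and Asns 0.94 and 1.78 in the same arrays.

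The genotype effect was then set between the sample numbers 5 to 8 and 1 to 4 by an interaction term in limma, in which WT 3 is the lone wild-type array of the low numbers and is assumed to vary like the others. None of the 8 passed, where 1.94% of features did. Psph had the largest term, -0.92 (SE 0.26, limma adjusted p = 0.0987), followed by Phgdh at -0.55 (adjusted p = 0.298). Vdac1 itself was 2.49 on average in KO 1 to KO 4 and 1.31 in KO 5 to KO 7, with an interaction term of -0.68 (limma adjusted p = 0.191), and its part in the enzyme differences was not tested.

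With the sample numbers as a block, 5 of the 8 fell (2.06% of features): Phgdh by 0.80 (limma adjusted p = 0.0083), Psph by 0.96, Shmt2 by 0.47, Aldh18a1 by 0.57 and Pycr1 by 0.98 on the log2 scale. With slide as a block 4 fell (1.02% of features), Shmt2 being the addition to the 3 of the first fit (-0.48, limma adjusted p = 0.0399).

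Each of the 3 slides held both genotypes. In slides 1, 2 and 3 the Pycr1 log2 fold change was -0.63, -1.53 and -1.39, that of Psph -1.08, -0.80 and -0.84, and that of Aldh18a1 -0.53, -0.73 and -0.64. Shmt2 and Mthfd2 were also below 0 in all 3. Phgdh was below 0 in all 3 with a wider spread, at -1.14, -0.093 and -0.59, while Psat1 (-0.51, 0.10 and -0.11) and Asns (0.41, -0.69 and -0.32) each took both signs. The knockout arrays of slide 1 were KO 6 and KO 7 and those of slide 2 KO 1, KO 2 and KO 3, so the slides and the sample numbers overlap. WT 5 was the only wild-type array of slide 2, so genotype there cannot be told apart from the split by sample numbers.

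**Figure D3:**
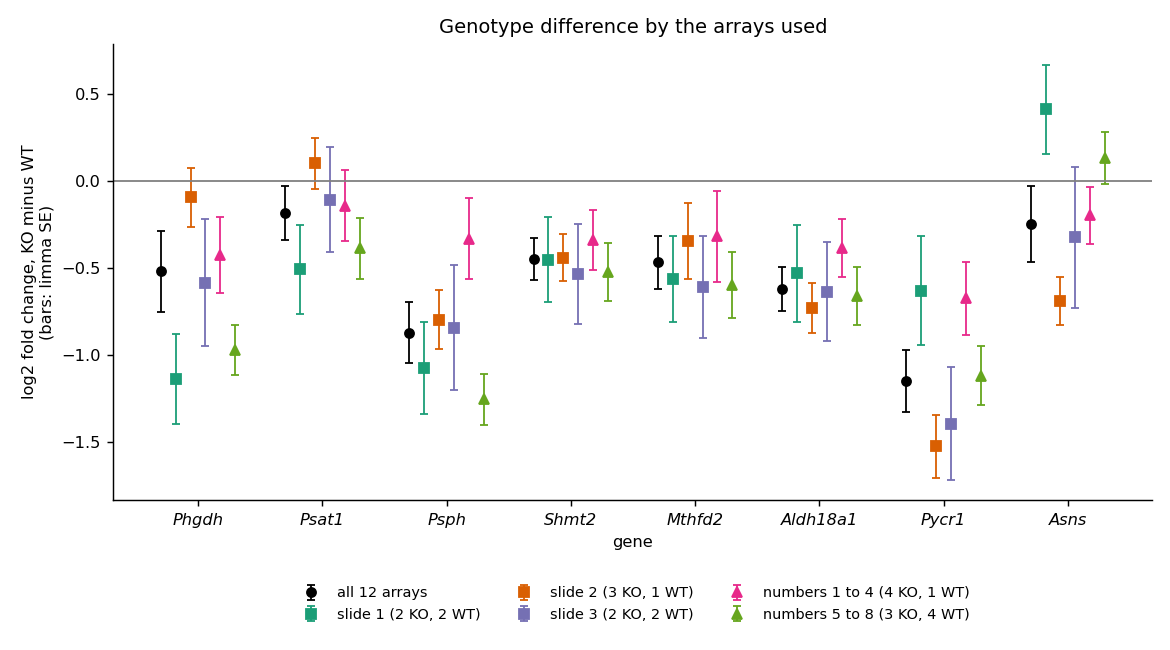
Log2 fold change, knockout minus wild type, with the SE from limma (bars) for the 8 enzymes (horizontal axis) in all 12 arrays (black), within each of the 3 slides (squares) and within sample numbers 1 to 4 and 5 to 8 (triangles). Pycr1, Psph, Aldh18a1, Shmt2, Mthfd2 and Phgdh are below 0 in every subset shown, and Psat1 and Asns lie on both sides of 0.

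A second probe was present for 5 of the enzymes. For Phgdh, Psat1, Mthfd2 and Aldh18a1 it lay nearer the 5′ end of the same transcript. The brightest and the second probe of Pycr1 are listed on different transcript records, so their base numbers cannot be compared. With each probe fitted on its own, 3 of the 12 tested probes fell, the brightest of Psph, Aldh18a1 and Pycr1 (0.442% of all probes tested), and none of the second probes passed. At base 607 Phgdh differed by -0.48 (exact permutation p = 0.104), close to the -0.52 of its brightest probe. At base 367 Mthfd2 differed by -0.45 (exact permutation p = 0.0152), beside -0.47. The second Aldh18a1 probe, at base 2067, differed by -0.66 with groups that overlapped (exact permutation p = 0.106). It was well above background on 6 of 7 knockout and 5 of 5 wild-type arrays, and its listed coordinates run against the transcript order of the pair.

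The other 2 second probes were dim. The Psat1 probe at base 61 was well above background on 3 of 7 knockout and 3 of 5 wild-type arrays (difference -0.68, exact permutation p = 0.226). The Pycr1 probe at base 310 was well above background on 1 of 7 knockout and 0 of 5 wild-type arrays, so it gave no fold and the Pycr1 call rests on 1 probe, read by 10 spots per array. The probe behind the call is listed on a predicted transcript record, and the dim probe on another record. Psph, Shmt2 and Asns also had 1 probe each.

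**Figure D4:**
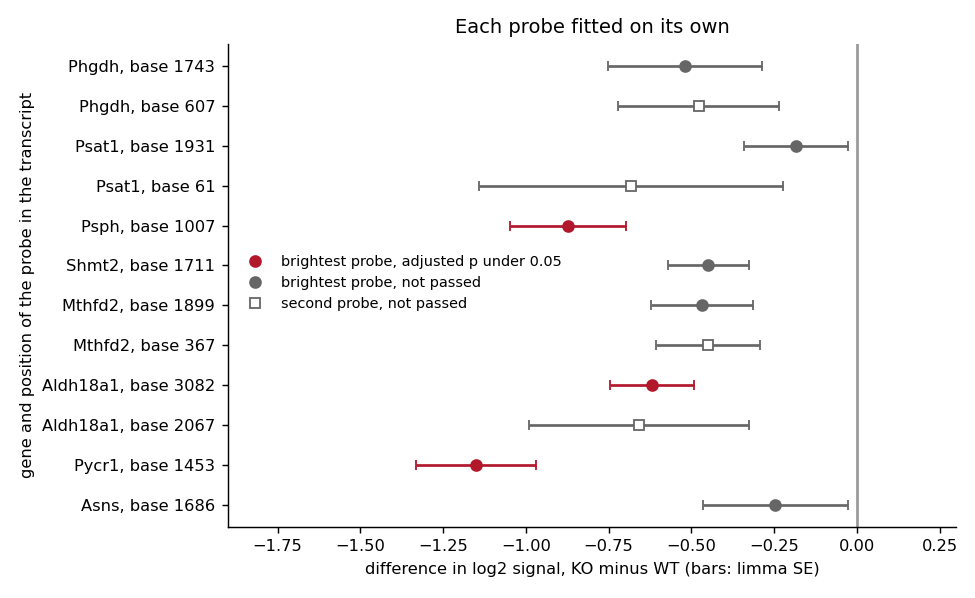
Difference in log2 signal, knockout minus wild type, with the SE from limma (bars), for the 12 tested probes (gene and base in the transcript, vertical axis). Circles are the brightest probe of a gene, open squares second probes, and red marks an adjusted p under 0.05. The brightest and the second probe of Phgdh, Mthfd2 and Aldh18a1 lie close together.

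RNA quality was compared through 302 genes with a pair of distant probes, by the median excess of the 3′ signal over these genes. This index lay between 1.42 and 1.74 in the knockout, and every wild-type array lay within that range, at up to 1.59 (exact permutation p = 0.889). The 3′ minus 5′ difference of the Phgdh pair was 4.32 ± 0.22 in the knockout and 4.36 ± 0.54 in the wild type (SD, n = 7 and 5, exact permutation p = 0.862).

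The regions before the genes' starts were read from the RefSeq promoter table of build GRCr8, which held 7 of the 8 genes. They were searched on both strands, from 250 bases before to 50 bases after the start, for the C/EBP-ATF response element written as TGATGNAAN, a binding motif of Atf4 with a C/EBP partner. It was found in 1 of the 7, Pycr1, and in 3.97% of all 33469 promoters of the table (1328). The Pycr1 promoter, that of the gene with the largest fall of the 8, is printed on the gene's strand from 250 bases before the start to the base before it (chr10:106420813-106421062, minus strand), with the match in capitals, 131 bases before the start.
Pycr1 promoter: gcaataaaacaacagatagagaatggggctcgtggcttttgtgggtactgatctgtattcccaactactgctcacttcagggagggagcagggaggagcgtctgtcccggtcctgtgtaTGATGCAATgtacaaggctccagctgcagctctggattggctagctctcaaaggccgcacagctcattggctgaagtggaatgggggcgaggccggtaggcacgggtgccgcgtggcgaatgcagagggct

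A match of letters is a description of the window and not a site. Phgdh, Psat1, Psph, Shmt2, Mthfd2 and Asns had no match in their windows. Only this window and this spelling were searched, so a missing match does not show that a gene lacks the element.

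Of the 58 other genes listed for these pathways, 50 were tested and 0 passed in either direction, with 4 higher and 5 lower at an unadjusted limma p under 0.05. Their median log2 fold change was 0.05. Genes named below are among the 2 with the smallest p of each list unless stated.

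Proline and glutamate metabolism gave both signs. Of its 10 other tested genes, 8 had a log2 fold change above 0 and the median was 0.32. Arg2, the mitochondrial arginase that makes ornithine, a source of proline, had levels of -0.63, -0.24, -0.57, -0.62, -2.07, -1.30 and -1.20 in KO 1 to KO 7, against -1.28, -2.06, -2.12, -2.35 and -1.96 in WT 3, WT 5, WT 6, WT 7 and WT 8. It was highest in KO 1 to KO 4, and WT 3 was the highest wild-type array (difference 1.01, SE 0.29, limma adjusted p = 0.109). With the sample numbers as a block Arg2 rose by 0.65 (limma adjusted p = 0.0453). Pycr3, a cytosolic reductase of pyrroline-5-carboxylate, named after its values were seen, differed by 0.35 (limma adjusted p = 0.225).

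Among 14 other tested genes of one-carbon and glycine metabolism the median log2 fold change was -0.011 and 7 were below 0. Gldc, which breaks down glycine, differed by -0.81 (SE 0.47, limma adjusted p = 0.430), and Shmt1, the cytosolic counterpart of Shmt2, by -0.31 (SE 0.19, limma adjusted p = 0.440). Gldc followed the sample numbers, at -4.52 to -3.12 in KO 1 to KO 4 and WT 3 and -2.11 to -1.35 in the other arrays. With the numbers as a block Gldc differed by -0.20 (limma adjusted p = 0.694) and Shmt1 by -0.14 (limma adjusted p = 0.654). The 7 tested genes of serine use and breakdown had a median of 0.075, with Sdsl, a serine dehydratase-like gene, at 0.32 (limma adjusted p = 0.351) and Ptdss2, a phosphatidylserine synthase, at 0.19 (limma adjusted p = 0.645), or 0.29 with the numbers as a block (limma adjusted p = 0.363).

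The 8 other tested genes of asparagine, aspartate and alanine metabolism had a median of 0.16. Gpt2, the mitochondrial alanine aminotransferase, differed by -0.48 (SE 0.18, limma adjusted p = 0.201) and Got2, the mitochondrial aspartate aminotransferase, by 0.28 (SE 0.15, limma adjusted p = 0.392), or by 0.18 with the numbers as a block, where it did not pass either.

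Regulators of the response to amino acid shortage were tested as 11 of 11 genes, with a median of -0.12, and 7 of them were below 0. Trib3, a pseudokinase gene and known target of Atf4, had levels of -1.17, -0.58 and -0.063 (lowest, median and highest) in the knockout, against 0.064, 0.81, 0.91, -0.038 and 1.08 in WT 3, WT 5, WT 6, WT 7 and WT 8. The groups did not overlap, with WT 7 and WT 3 close to the highest knockout arrays (difference -1.10, SE 0.26, limma adjusted p = 0.0578). With the sample numbers as a block Trib3 fell by 1.15 (limma adjusted p = 0.0346). Ddit3, a stress transcription factor, differed by -0.66 (SE 0.19, limma adjusted p = 0.107), and Atf4 itself, named after its values were seen, by -0.30 (SE 0.14, limma adjusted p = 0.330).

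**Figure D5:**
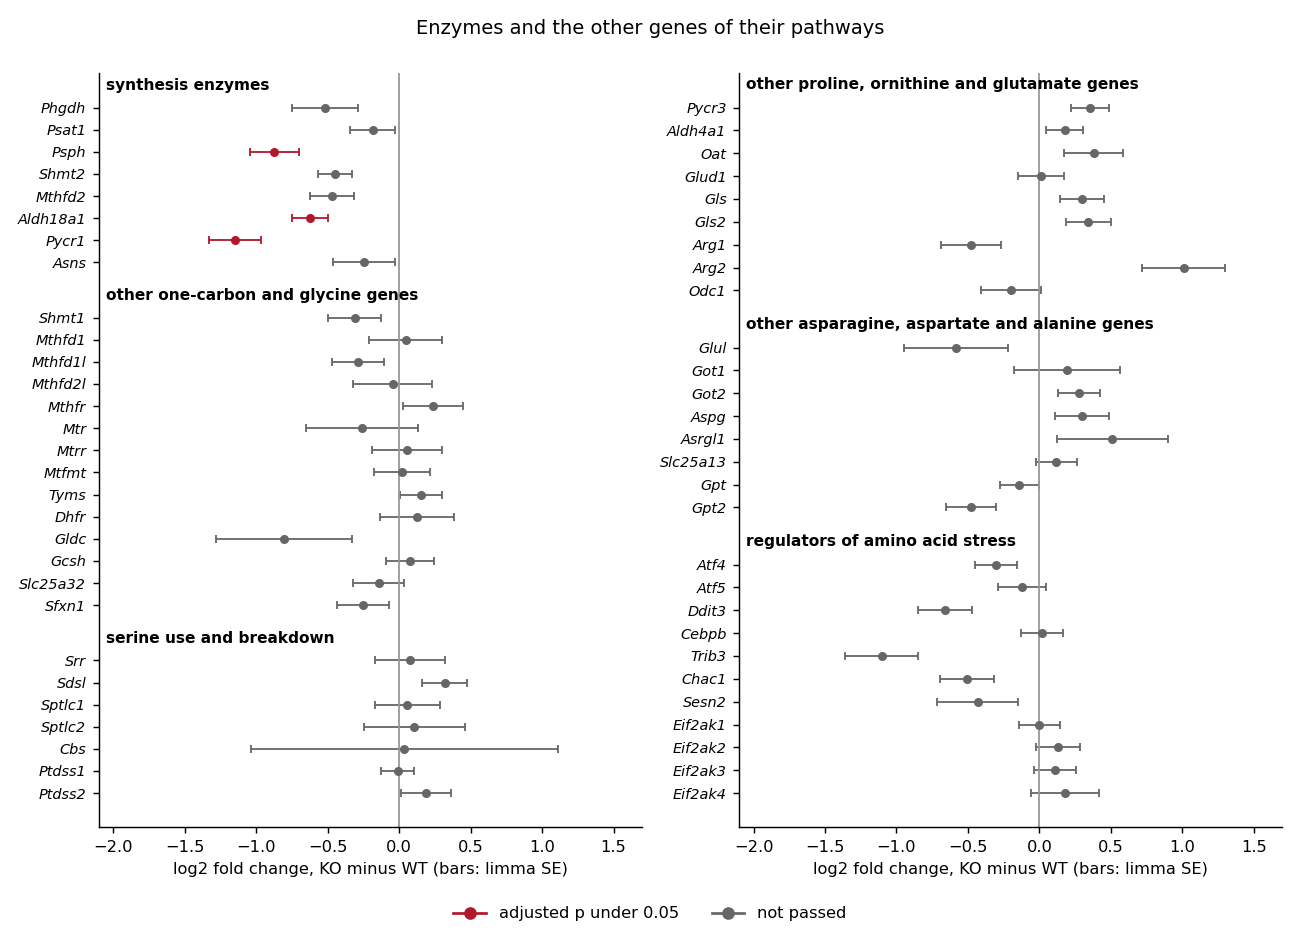
Log2 fold change, knockout minus wild type, with the SE from limma (bars, horizontal axis) for the 8 synthesis enzymes and other tested genes of their pathways, grouped by list. Red marks an adjusted p under 0.05, reached by Psph, Aldh18a1 and Pycr1.

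The 12-array pattern of the 8 enzymes was summarised as the mean of their centred values, and its Pearson correlation was taken with each of 9990 other tested genes that have a symbol. Because that mean differs between the genotypes, genes that differ by genotype rank high. The 6 closest were Npy (0.97), Eprs1 (0.96), Sox4 (0.96), Lars1 (0.95), Gpat3 (0.95) and Afg2a (0.95). Eprs1 and Lars1 encode aminoacyl-tRNA synthetases, Npy a neuropeptide, Sox4 a transcription factor and Gpat3 an acyltransferase of glycerolipid synthesis. With genotype means subtracted, Gpat3 still correlated at 0.93, and the other 5 at 0.60 to 0.75.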

How the data were processed

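Per the labels' protocols, Trizol was used to extract total RNA, which was labelled with Cy3. Images were read with Agilent Feature Extraction 10.7 per the submitters' processing notes, whereas the file headers name 10.1.1.1. Intensity per spot, linear, is what the deposited scanner files give. The authors' deposited value table holds log2 values, used as an alternative, with a median of 3.06 over all columns together.

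Spots flagged as uneven or outlying were left out, spots of a probe were averaged as log2 processed signal and set relative to the 75th percentile of their array. The brightest probe stood for a gene, and features well above background on at least 5 of 12 arrays were tested in limma 3.58.1 (R 4.3.3; lmFit and eBayes, two-sided, no covariate), knockout minus wild type, with Benjamini-Hochberg adjusted p under 0.05. Single probes were also tested by exact two-sided permutation of the arrays. The script was tested on simulated data. The genes and lists were chosen with earlier results of these data known. Every enzyme and probe is named, and of each other list the called genes, or the 2 with the smallest p, of which 1 is not reported here. The 6 genes most like the enzymes are also named. Alternatives changed the background correction, scaling, filter, blocks and arrays used.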

Additional observations from a re-analysis of the deposited data

Results flagged for a closer look

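Both values that stood far from their group came from the second Aldh18a1 probe, at base 2067, and chance flags about 1 in 20 groups, of which 26 were checked. KO 4 was at -3.83, and the nearest of the other knockout arrays was at -2.87. WT 3 was at -3.29, and the nearest of the other wild-type arrays was at -1.96. The probe is dim, and the brighter Aldh18a1 probe placed neither array apart from its group by the same measure.

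A further probe is described in the files as Asns but carries another gene name, so the choice by gene name left it out. Its mean was -1.17 ± 0.68 in the knockout and -0.90 ± 0.46 in the wild type (SD, n = 7 and 5), a difference of -0.27 (exact permutation p = 0.447), near the -0.25 of the Asns probe used. It was well above background on all 12 arrays.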

How the results depend on the processing

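Over 31 alternatives Psph, Shmt2, Mthfd2, Aldh18a1, Pycr1 and Phgdh kept a log2 fold change below 0, and passed in 14, 3, 0, 12, 22 and 2 of them. Asns ranged from -0.69 within slide 2, with 1 wild-type array, to 0.41 within slide 1. It was also above 0 in numbers 5 to 8 alone (0.13), with the numbers as a block (0.027) and with the replicate block (0.039). Psat1 turned to 0.10 within slide 2. The cause was not tested. Counts below are limma's, features higher and lower, against 103 and 58. They were 16 and 9 with normexp (1 enzyme lower), 21 and 19 with the array median (1 enzyme), 182 and 109 with all 12 arrays above background, 253 and 151 with slide and 231 and 139 with scan day as a block (each of the last 3 called 1 other pathway gene lower, Trib3). Quantile normalization called 56 higher, the percentile over detected probes 58 and the deposited values gave 54. The sample titles begin with Q. Norm., so the deposited values may already be quantile normalized and overlap with that alternative. Slide 2 alone, with 1 wild-type array, gave 1062 and 924 (other pathway genes 3 and 4). The numbers as a block gave 446 and 303 (5 enzymes lower; Arg2 higher and Trib3 lower, 1 and 1), numbers 5 to 8 alone 332 and 345 (3 other genes lower: Cbs, Chac1 and Trib3), and numbers 1 to 4 alone 47 and 5 (0 enzymes, 1 at unadjusted p under 0.05). No feature passed in limma without the filter (0 enzymes; 1129 and 852 at unadjusted p under 0.05), within slide 1 (986 and 768), within slide 3 (428 and 355) or with the replicate block (920 and 614). The samples share only a number: deviations of same-numbered samples from their genotype mean correlated at 0.46, -0.11, 0.073 and 0.050 for numbers 3, 5, 6 and 7. KO 3 and WT 3 both belong to numbers 1 to 4, and that split was not subtracted, so the 0.46 cannot tell a pairing from the split. Leaving out 1 array gave 9 to 383 higher and 3 to 268 lower, 0 to 3 enzymes lower, 0 to 2 other genes higher and 0 to 4 lower, the most without WT 3. The enzymes' median was -0.59 with quantile normalization, -0.62 in the deposited table, -0.60 within slide 3, -0.63 in numbers 5 to 8, -0.34 in numbers 1 to 4, and -0.57 to -0.41 with 1 array left out. The RNA quality index as a covariate, added after the data were seen, gave 97 and 67 with 3 enzymes lower. A dim second probe limits what Psat1 shows at its 5′ end, and leaves Pycr1 resting on 1 probe.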
